A study of Homo sapiens with 24 samples.

Results

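Dense clusters of accessible sites were taken from the ATAC-seq peaks of T47D cells by position alone. Neighbouring peaks whose midpoints lay within 5 kb of each other were joined, and the members are the 4307 peaks of joined runs that hold 8 or more peaks. They make up 2.27% of the 189403 peaks and form 417 runs, out of 116389 runs of any size. The rule has a threshold of 8 peaks: 171 runs held exactly 8 and stand just inside it, and 343 runs held 7 and stand just outside.

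T47D is an established line of estrogen receptor positive luminal breast cancer cells, and the assay counts where the transposase Tn5 could insert into open chromatin. There were 6 groups of 4 libraries. Cells of 2 groups were starved of hormone for 3 days, in RPMI 1640 without phenol red and with charcoal stripped serum, and then received 1 nM beta estradiol or 0.1% v/v DMSO as vehicle for 1 h. Cells of the other 4 groups spent 1 day in complete medium, RPMI 1640 with untreated serum, and then received 100 nM fulvestrant, 100 nM raloxifene, 100 nM tamoxifen or the DMSO vehicle for 1 h. Fewer cells were plated for starvation than for complete medium, so the media also differ in cell number and days of culture, and these cannot be told apart. All groups are of this 1 line. Whether replicates came from separate cultures is not stated, and the p-values then measure the spread among these libraries alone. In such bulk libraries a site open in more cells and a site opened further per cell cannot be told apart.

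Estradiol binds the estrogen receptor, a nuclear receptor that binds DNA at enhancers, often beside the pioneer factor FOXA1, and recruits coactivators that open chromatin. Fulvestrant degrades the receptor, while raloxifene and tamoxifen are selective receptor modulators that occupy the same pocket. Super-enhancers are stretches in which many enhancers lie close together with heavy coactivator and acetylated histone signal, and they are known to lie near genes of cell identity. These data hold accessibility only, so the clusters are called dense runs here, and no histone mark or coactivator was measured.

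The label of super-enhancer was met in part. Strong signal went with density in many runs, but in 150 of the 417 runs the median peak was below 2.02 CPM (counts divided by each library's total, with that total adjusted for composition), the median over all peaks. The dense runs also included 5 runs at ribosomal RNA genes or on the short arm of chromosome 21, where the single largest run lay. Of all coding genes 2.37% lay within 10 kb of a dense run. On a list of luminal factors and keratins 11 of the 30 genes did (36.7%), on a list of estrogen-induced genes 9 of 30 and on the housekeeping list 26.7%. None of 15 basal or mesenchymal markers and none of 12 blood cell markers did, although within 50 kb 2 of the 15 did. The lists were drawn up with earlier results of these data known, so these shares are no independent support for the label.

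Across the series, libraries held 434598 to 12140005 counts in peaks. The lowest was fulvestrant replicate 4, with 36.1% of peaks at 0, and the next lowest was starved vehicle replicate 3, with 2422981. Complete vehicle replicates 3 and 4 carry a treatment label of fulvestrant against a title of DMSO. The main counts and values that rest on them are also given without them. Only defining markers with a listed start could be read. Of these, 4 of 5 luminal genes had a peak within 1 kb of it (ESR1 had none there), against 5 of 8 basal or mesenchymal and 2 of 4 blood genes. Median summed levels were 24.2, 3.01 and 1.29 CPM, and the highest 44.3, 26.4 and 6.23. The types overlapped: the 26.4 CPM of ACTA2, a basal or mesenchymal marker, was above GATA3 (18.1) and SPDEF (24.2) and below KRT8 (30.2) and FOXA1 (44.3). Replicates 3 and 4 stood apart from replicates 1 and 2: in 59 of the 417 dense runs (14.1%) all 6 groups differed between these sets in the same direction. Of these runs 22 were higher and 37 lower in replicates 3 and 4. The like share for runs of other sizes is not given. The labels name no batch.

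The sequences shown first are promoters inside dense runs: 5 of them are every first-listed coding promoter that overlapped a peak in a run raised by estradiol, and the last, of the luminal factor gene GATA3, lies in a strong run that estradiol did not raise. They are 300 bases long (250 before and 50 after the listed start), from RefSeq on GRCh38.p14, 5′ to 3′ on the gene's strand, and capitals mark a match to one of the motifs searched on both strands. The genes are RARA (chr17:40308930-40309229, plus strand), SIAH2 (chr3:150763120-150763419, minus strand), MED13L (chr12:116277644-116277943, minus strand), ASB13 (chr10:5666546-5666845, minus strand), PAK4 (chr19:39125536-39125835, plus strand) and GATA3 (chr10:8045083-8045382, plus strand).
RARA: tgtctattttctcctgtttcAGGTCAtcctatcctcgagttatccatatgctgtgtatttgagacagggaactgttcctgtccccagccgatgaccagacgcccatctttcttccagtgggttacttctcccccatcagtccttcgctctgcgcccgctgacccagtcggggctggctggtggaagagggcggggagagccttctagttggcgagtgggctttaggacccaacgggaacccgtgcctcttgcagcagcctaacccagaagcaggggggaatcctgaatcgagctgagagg
SIAH2: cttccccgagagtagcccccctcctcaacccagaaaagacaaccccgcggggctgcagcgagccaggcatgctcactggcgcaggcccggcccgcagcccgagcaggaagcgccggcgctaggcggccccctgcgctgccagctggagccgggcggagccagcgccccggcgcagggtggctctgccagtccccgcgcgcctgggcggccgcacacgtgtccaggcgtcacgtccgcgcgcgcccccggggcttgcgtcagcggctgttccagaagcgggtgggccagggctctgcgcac
MED13L: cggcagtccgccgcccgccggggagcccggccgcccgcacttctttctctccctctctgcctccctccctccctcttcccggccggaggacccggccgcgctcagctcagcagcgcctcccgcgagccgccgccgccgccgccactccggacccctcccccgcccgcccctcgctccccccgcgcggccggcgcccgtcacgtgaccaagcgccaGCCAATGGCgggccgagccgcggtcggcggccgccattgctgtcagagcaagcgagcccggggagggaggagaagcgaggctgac
ASB13: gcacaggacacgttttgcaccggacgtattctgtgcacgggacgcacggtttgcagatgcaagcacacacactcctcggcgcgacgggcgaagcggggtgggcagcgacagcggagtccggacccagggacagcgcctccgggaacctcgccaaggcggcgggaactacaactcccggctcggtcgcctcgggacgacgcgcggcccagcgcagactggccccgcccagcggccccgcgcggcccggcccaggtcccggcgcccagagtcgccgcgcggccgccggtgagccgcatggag
PAK4: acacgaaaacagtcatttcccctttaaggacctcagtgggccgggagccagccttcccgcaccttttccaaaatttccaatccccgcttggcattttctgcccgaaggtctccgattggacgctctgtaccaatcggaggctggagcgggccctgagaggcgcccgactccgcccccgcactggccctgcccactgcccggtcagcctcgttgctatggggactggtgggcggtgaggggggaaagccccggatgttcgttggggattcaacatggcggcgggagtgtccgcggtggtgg
GATA3: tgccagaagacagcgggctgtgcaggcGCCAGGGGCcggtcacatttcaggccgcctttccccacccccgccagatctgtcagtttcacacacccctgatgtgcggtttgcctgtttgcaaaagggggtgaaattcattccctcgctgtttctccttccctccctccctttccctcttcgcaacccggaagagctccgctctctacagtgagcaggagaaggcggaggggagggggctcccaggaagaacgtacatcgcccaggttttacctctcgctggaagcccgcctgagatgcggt

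The motifs were a full estrogen response element (an inverted repeat with 3 free bases in its middle), a single arm of it (AGGTCA), an AP-1 site (TGANTCA), a forkhead site (TGTTTAC), a site of the GATA family (AGATAA), an AP-2 site (GCCNNNGGC) and an element of the progesterone and glucocorticoid receptors (ACANNNTGT). In the 6 sequences RARA held 1 single arm, MED13L and GATA3 held 1 AP-2 match each, and SIAH2, ASB13 and PAK4 held no match. A full element holds the core of an arm, so those 2 searches overlap. Of 15842 coding promoters with a listed start, 104 overlapped a peak of a dense run. The full element was found in 0.0379% of all these promoters and in none of the 104, and the single arm in 11.7% and 9.62%. The AP-2 letters were found in 28.3% of all and 43.3% of the dense-run promoters, and those of the GATA family in 7.57% and 1.92%. The median GC content of the sequences was 62.7% over all and 69.3% in the dense runs. The 104 were chosen by overlap with a peak and the full set was not. The sets therefore also differ in accessibility, and its part in these shares was not tested. A match describes letters only.

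The 104 promoters overlapped 100 distinct peaks, of which 99 were tested. With estradiol edgeR called 0 of them (0.813% of all tested peaks were called higher and 0.0223% lower). In complete against starved medium 2 were called higher and 3 lower (7.93% and 9.91% of all). The SIAH2 promoter peak averaged 92.2 CPM with an estradiol change of 0.03 on the log2 scale, and the RARA promoter peak 13.4 CPM with 0.12. The promoter peaks of MED13L, ASB13 and PAK4 averaged 36.9, 26.5 and 23.4 CPM, with changes of 0.05, 0.10 and -0.16. The rises described below were thus carried by other peaks of these runs.

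Most dense runs were short. They held a median of 9 peaks, 265 of them held 8 or 9, and 37 held 15 or more. Spans ran from 3.96 to 82.6 kb with a median of 16.8 kb, and peaks within a run stood a median of 1640 bp apart. Summed over its peaks, a run averaged 0.998 to 1520 CPM over the 24 libraries, with quartiles of 18.8, 41.2 and 80.7 CPM. Signal was uneven among runs, since the top 10% of runs held 40.1% of the dense-run CPM. It was uneven within runs too: the strongest peak carried a median of 27.9% of its run, from 6.64% to 84.9%.

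**Figure D1:**
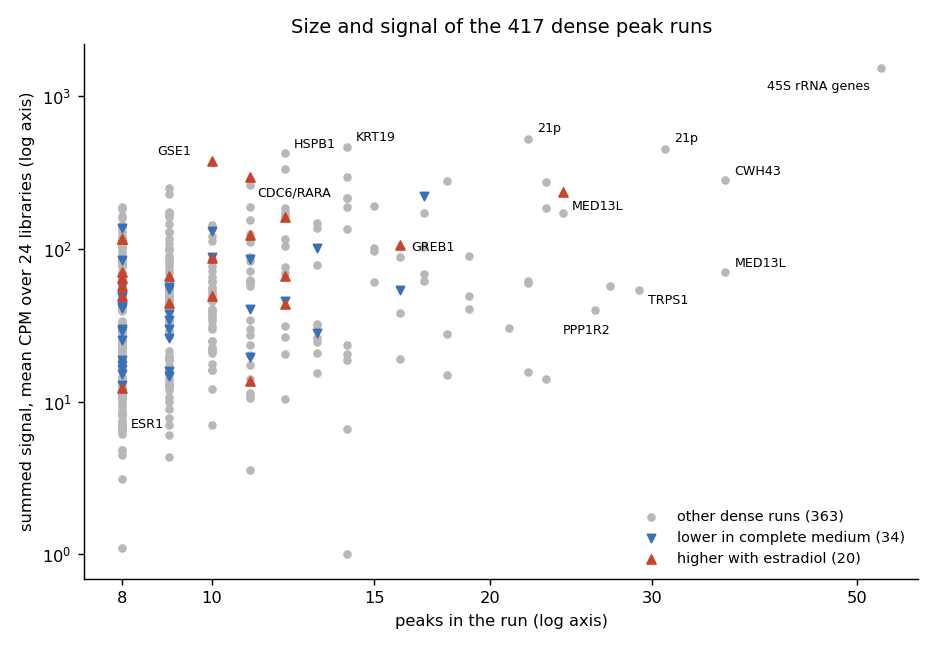
Each point is 1 of the 417 dense runs, with its number of peaks on the horizontal log axis and its signal summed over peaks (mean CPM of 24 libraries) on the vertical log axis; markers show runs called higher with estradiol, runs called lower in complete medium, and the rest. Runs of 8 or 9 peaks spread from 1.10 to 252 CPM, the strongest runs (up to 1520 CPM) hold more peaks, and the 20 runs raised by estradiol lie between 12.2 and 377 CPM.

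Peaks of dense runs were slightly stronger than others and of much the same width. Their median level was 2.78 CPM against 2.00 for all other peaks, and their median width 220 bp against 226 bp. Of the dense-run peaks 53.5% lay inside a gene, against 47.6% of the others. On chromosomes with listed starts 6.43% of 4027 dense-run peaks lay within 1 kb of a start, against 8.37% of 175057 other peaks. These are descriptions with no test, since peaks of a run share libraries and sequence neighbourhood.

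The runs lay at 362 distinct coding genes, and 111 runs overlapped none, at a median of 51.0 kb from the nearest. Several runs fell in 1 long gene. MED13L, a subunit of the Mediator kinase module, held 7 runs with 144 peaks, and TRPS1, a GATA-type repressor of luminal cells, held 7 runs with 114 peaks. The prolactin receptor gene PRLR held 6 runs with 90 peaks, GSE1, which encodes a protein of a histone deacetylase complex, held 4 with 42, and the progesterone receptor gene PGR and the growth factor receptor gene IGF1R held 3 runs with 32 peaks each. GATA3, a zinc finger factor of luminal cells, held 2 runs with 32 peaks, the stronger by signal being chr10:8034785-8054705. Chromosome 11 had 41 runs, chromosome 1 had 39 and chromosome 13 had 1.

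Of the 8 runs named for most peaks, 1 was called with estradiol. The run with 53 peaks (chr21:8388949-8471505, over 8 ribosomal RNA genes) averaged 1520 CPM, with 1544 ± 16.1 (SD, n = 4) in starved vehicle, 1587 ± 135 with estradiol and 1571 ± 128 in complete vehicle. It alone held 5.45% of all dense-run signal. Ribosomal RNA genes are repeated, and reads from near-identical copies can be assigned to any of them, so this level is uncertain. A second run on the short arm of chromosome 21 (chr21:8987162-9024318, 31 peaks) averaged 449 CPM and changed with medium, from 382 ± 27.0 CPM in starved to 525 ± 31.3 in complete vehicle (0.45 ± 0.07 SE on the log2 scale; adjusted p by edgeR = 2.30e-06), with 18 of its peaks called higher.

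The other 2 large runs of note differed most between single libraries. The run 52.6 kb from CWH43 (chr4:49114662-49161420, 36 peaks) averaged 282 CPM but ranged from 54.2 to 2074 CPM. Its fulvestrant libraries held 180.3, 81.8, 659.6 and 2074 CPM, and its starved vehicle libraries 54.2, 129.9, 349 and 143. The run 8.08 kb from PPP1R2 (26 peaks), a gene for an inhibitor of protein phosphatase 1, held 28.8, 14.98, 88.1 and 253 CPM with fulvestrant and 6.84, 16.6, 41.8 and 20.9 in starved vehicle. In both runs the shallow libraries, fulvestrant replicate 4 and starved vehicle replicate 3, were the high ones of their groups. Neither run passed a test.

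The other runs with most peaks lay in MED13L and TRPS1. The MED13L run with 36 peaks (chr12:116113481-116166619) averaged 70.2 CPM, the TRPS1 run with 29 peaks 53.8 CPM, and the MED13L run with 24 peaks, which spans the promoter shown above (chr12:116254578-116299377), 234 CPM. By signal the highest runs outside chromosome 21 lay at KRT19, a keratin of luminal epithelium (467 CPM, 14 peaks), HSPB1, a small heat shock protein (422 CPM, 12 peaks), GSE1 (377 CPM, 10 peaks), BCL9L, a beta-catenin cofactor (332 CPM, 12 peaks), and CDC6 with RARA (296 CPM, 11 peaks). CDC6 licenses DNA replication, and RARA encodes a retinoic acid receptor.

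The comparison of estradiol with vehicle in starved cells shows which dense clusters opened within 1 h of the hormone. Estradiol raised peaks in dense runs and lowered none: 87 of the 3769 dense-run peaks that passed the count filter were called higher (2.31%), beside 0.813% of all tested peaks, and 0 were called lower, beside 0.0223% of all (edgeR quasi-likelihood test, Benjamini-Hochberg adjusted over 156745 peaks, threshold 0.05). At an unadjusted p under 0.05, 256 were higher (6.79%, beside 3.62% of all) and 90 lower (2.39%, beside 2.37%), and DESeq2 called 78 higher and 1 lower. The median change over the 3769 was 0.02 on the log2 scale, and -0.01 over all tested peaks. The other 538 dense-run peaks did not pass the filter. The 87 peaks rose by a median of 1.24 on the log2 scale (0.35 to 3.37), and had a median level of 7.89 CPM. Their place was mostly outside promoters: 62 lay inside a gene, and 1 of the 84 with a listed start on their chromosome lay within 1 kb of one.

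With counts summed per run, 20 of 417 dense runs were called higher (4.80%), beside 0.774% of the 102433 tested runs of any size, and 0 were called lower, beside 0.0234% (edgeR, adjusted over all runs). Unadjusted, 49 were higher (11.8%, beside 3.46% of all) and 9 lower (2.16%, beside 2.26%), and DESeq2 called 20 higher and 0 lower, sharing 19 with edgeR. Since signal sets what a test can see, runs were also compared at like levels: among runs with a mean level within the quartiles of dense runs, 9 of 209 dense runs were higher (4.31%) and 233 of 13587 other runs (1.71%). Without estradiol replicate 3 the count of raised dense runs was 11, without starved vehicle replicate 1 it was 12, and it was 11 to 21 over all single libraries left out. All 20 changes were above 0 in replicates 1 and 2 alone (0.22 to 0.89, 15 called) and in replicates 3 and 4 alone (0.28 to 1.53, 6 called). The same libraries chose these 20 runs, so the shared sign is no independent support.

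The share of peaks raised by estradiol went up with run size, up to runs of 8 to 9 peaks. Of tested peaks that stood alone 0.529% were higher with estradiol, of those in pairs 0.748%, in runs of 3 to 4 peaks 1.01%, of 5 to 7 peaks 1.35%, of 8 to 9 peaks 2.33% and of 10 or more 2.29%. Between complete and starved medium the same classes had 6.79%, 7.65%, 8.71%, 10.2%, 13.7% and 13.9% higher, and 10.4%, 10.3%, 9.75%, 7.78%, 6.46% and 4.58% lower. The median level moved with size as well, from 1.898 CPM for lone peaks to 3.00 CPM in runs of 10 or more; its part in these shares was not tested across the classes. Within the quartiles of dense-run peak levels, 2.18% of dense-run peaks and 0.803% of other peaks were higher with estradiol.

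**Figure D2:**
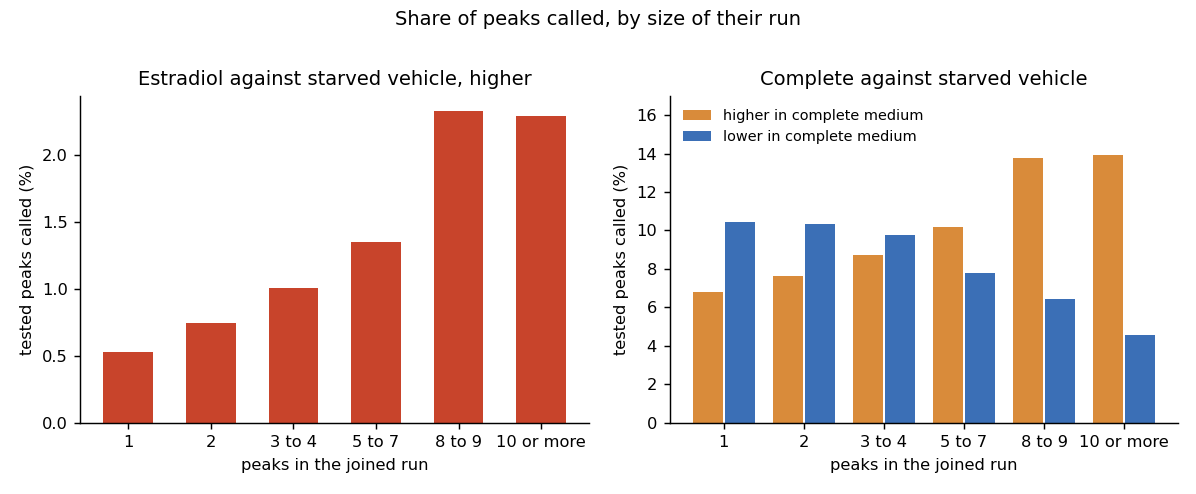
Bars give the percentage of tested peaks called at an adjusted p under 0.05, by the number of peaks in the joined run; left, higher with estradiol, and right, higher or lower in complete against starved vehicle. The estradiol share goes from 0.529% for lone peaks to 2.33% and 2.29% in the dense classes, and the share lower in complete medium falls from 10.4% to 4.58%.

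Among the raised runs GREB1, an early estrogen target and receptor coactivator, showed one of the clearest separations of groups. Its run (chr2:11539453-11563747, 16 peaks within the gene) held 48.5, 55.2, 58.8 and 58.9 CPM in the 4 starved vehicle libraries and 96.1, 95.9, 117 and 109 CPM with estradiol. All 4 estradiol libraries stood above all 4 vehicle libraries, by 0.93 ± 0.09 (SE) on the log2 scale (edgeR, adjusted p = 4.27e-12). Runs named for estradiol or for medium had to be called and free of overlap between groups in that comparison. For them the lack of overlap restates the choice and is no further evidence. In complete vehicle the GREB1 run held 127 ± 5.12 CPM (SD, n = 4). Of its 16 peaks 3 were called, and the outermost one (chr2:11539453-11539767) held 8.76 to 13.1 CPM in vehicle libraries and 28.8 to 38.1 CPM with estradiol (1.62 ± 0.15 SE). The called peaks carried 80.4% of the run's change.

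GSE1 had the strongest of the raised runs (chr16:85445167-85466283, 10 peaks within the gene). It held 187, 196, 261 and 231 CPM in starved vehicle and 318, 329.9, 398 and 414 CPM with estradiol, again without overlap, with a change of 0.76 ± 0.11 SE (edgeR, adjusted p = 1.69e-04, or 0.120 in a fit of only these groups). Here 6 of 10 peaks were called, the highest number in a raised run, but their rises were uneven, from 0.39 to 1.79. The peak at its edge (chr16:85466009-85466283) held 28.9 to 32.0 CPM in vehicle libraries and 92.6 to 122 CPM with estradiol (1.79 ± 0.17 SE). Its mean went from 30.6 to 107 CPM, a large part of the run's change.

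The run 24.4 kb from GRHL2, a transcription factor of epithelial cells, held 19.4, 24.7, 29.2 and 22.5 CPM in starved vehicle and 37.6, 40.9, 52.6 and 52.7 CPM with estradiol (1.01 ± 0.13 SE; edgeR adjusted p = 3.49e-07). Estradiol libraries lay above all vehicle ones, and complete vehicle was higher still at 70.5 ± 6.56 CPM. A single peak of its 8 was called (1.85 ± 0.20 SE) and carried 80.2% of the change.

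The run with the largest fold was at IFITM10, a member of the interferon-induced transmembrane family (chr11:1732466-1741035, 8 peaks). It was weak, at 4.60, 4.90, 4.87 and 3.31 CPM in starved vehicle and 8.56, 8.65, 9.16 and 12.1 CPM with estradiol, and the groups did not overlap (1.17 ± 0.25 SE; edgeR adjusted p = 0.00697). Without starved vehicle replicate 4, the lowest library, the adjusted p was 0.115 with a change of 1.00.

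PGR, a classic estrogen target, held 3 dense runs, of which 2 were called. The run at chr11:101039733-101056607 held 5.05, 8.32, 8.93 and 7.07 CPM in starved vehicle and 9.79, 12.6, 14.6 and 11.5 CPM with estradiol (0.82 ± 0.20 SE; edgeR adjusted p = 0.0297, above 0.05 when estradiol replicate 2 or 3 or starved vehicle replicate 1 or 4 was left out, at 0.076 to 0.271). A stronger run at chr11:101108216-101129905 went from 49.7 ± 4.48 to 69.7 ± 3.46 CPM (0.46 ± 0.09 SE; adjusted p = 3.59e-04). The third (chr11:101091341-101103439) had a change of 0.34 ± 0.11 SE that did not pass (adjusted p = 0.232).

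At CDC6 and RARA (chr17:40301414-40322630, 11 peaks) the run held 231, 228, 256 and 235 CPM in starved vehicle and 319, 311, 324 and 338 CPM with estradiol (0.45 ± 0.08 SE; edgeR adjusted p = 6.61e-05). The spread within each group was small against the step between them. Complete vehicle stood at 321 ± 11.7 CPM, and 2 peaks of the run were called, neither at the RARA promoter shown above.

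SIAH2, an E3 ubiquitin ligase and known estrogen target, had a run dominated by its promoter peak, which carried 56.4% of the signal. The run (chr3:150744713-150763545, 12 peaks) went from 140.3 ± 13.5 to 181 ± 7.42 CPM (n = 4 each; 0.34 ± 0.08 SE; edgeR adjusted p = 0.00839). This call was lost without estradiol replicate 3 (adjusted p = 0.107) or starved vehicle replicate 1 or 3 (0.065 and 0.075). The called peaks were 3 others, and they carried 63.3% of the change.

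IGF1R and MED13L were at the lower edge of the calls. The IGF1R run (chr15:98745267-98768198, 12 peaks) went from 32.4 ± 3.14 to 42.7 ± 3.76 CPM (0.40 ± 0.10 SE; edgeR adjusted p = 0.0374), and the MED13L run with 24 peaks from 197 ± 13.3 to 242 ± 6.81 CPM (0.29 ± 0.07 SE; adjusted p = 0.0217). The IGF1R call was lost when any library of either group but estradiol replicate 1 or starved vehicle replicate 1 was left out (adjusted p 0.064 to 0.401). The MED13L call was lost when any but starved vehicle replicate 2 was (0.065 to 0.238). Single peaks within them were clearer: 1 peak in IGF1R (chr15:98749246-98749535) held 0.461 to 3.21 CPM in vehicle libraries and 3.50 to 6.12 CPM with estradiol (2.64 ± 0.37 SE; adjusted p = 2.01e-07).

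CACNA1H, a T-type calcium channel gene, was raised by estradiol to about its level in complete medium. Its run (chr16:1182231-1199311, 8 peaks) held 35.0 ± 4.61 CPM in starved vehicle, 53.5 ± 2.88 with estradiol and 52.9 ± 2.39 in complete vehicle (0.66 ± 0.10 SE with estradiol; edgeR adjusted p = 4.49e-06). One of its 4 called peaks (chr16:1191510-1191780) held 1.15 to 2.41 CPM in vehicle libraries and 4.68 to 6.93 CPM with estradiol, while complete vehicle held 2.27 to 2.73 CPM, below every estradiol library. The rise of that peak was 1.93 ± 0.30 (SE) with estradiol, and its change with medium, 0.76, did not pass (adjusted p = 0.144).

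The peak with the largest rise among those named lay in the run 76.0 kb from ATP11B, a phospholipid flippase gene. This peak (chr3:182699836-182700167) held 1.27, 1.74, 1.20 and 1.73 CPM in starved vehicle and 14.1, 13.7, 12.8 and 12.1 CPM with estradiol (3.07 ± 0.40 SE; edgeR adjusted p = 3.27e-05). The run of 10 peaks around it went from 59.8 ± 7.57 to 84.7 ± 8.91 CPM (0.53 ± 0.09 SE; adjusted p = 6.22e-05). A peak of a run at PKP4, a plakophilin gene (chr2:158507330-158507571), was also among the largest rises, with 1.20 to 2.31 CPM in vehicle and 4.88 to 8.08 CPM with estradiol (1.91 ± 0.27 SE).

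Of the other raised runs, PEBP4 rose by 0.69 ± 0.11 (SE), NEK10, a NIMA-related kinase gene, by 0.57 ± 0.12 and BFSP2, a beaded filament gene of the lens, by 0.42 ± 0.09 on the log2 scale. BFSP2 was the only one of the 20 whose groups overlapped. The NEK10 and BFSP2 calls were lost without estradiol replicate 3 (adjusted p = 0.07 and 0.089) and without starved vehicle replicate 1 (0.059 and 0.052). Another 4, named after their values were seen, lay at ASB13, ITPR1, PAK4 and LOC124904102, with changes of 0.45, 0.44, 0.35 and 0.31. Over the 20 the median change was 0.46 (0.29 to 1.17).

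**Figure D3:**
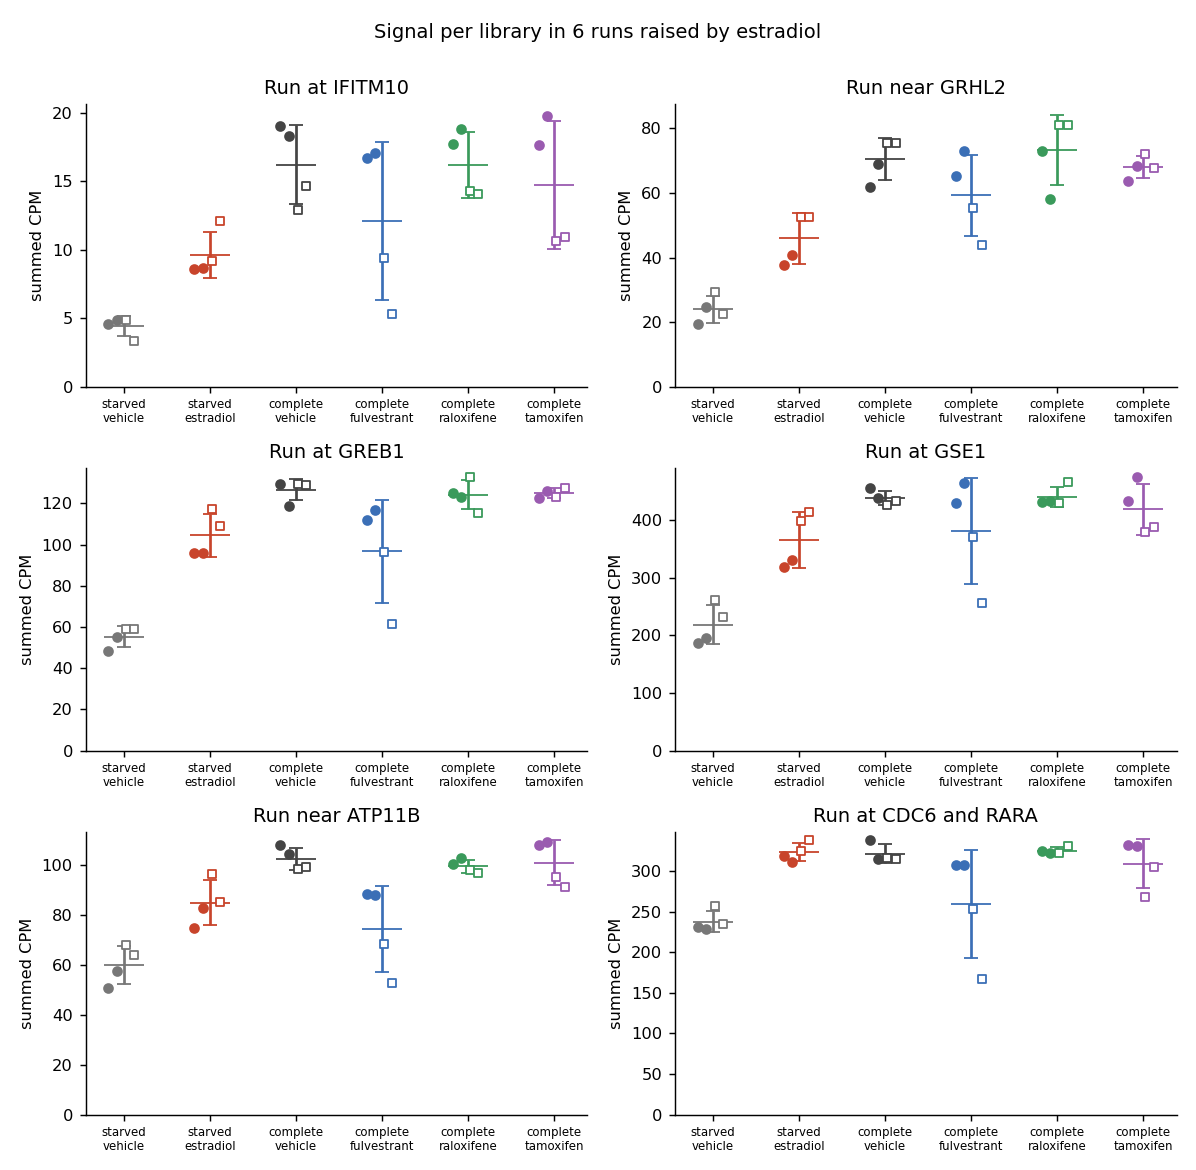
Panels give the signal summed over a run, in CPM, for each of the 24 libraries in 6 runs raised by estradiol; points are libraries, and the bar and whiskers are the mean ± SD of 4. At GREB1 and GSE1 all estradiol points lie above all starved vehicle points, and near ATP11B fulvestrant replicates 3 and 4 (68.3 and 52.8 CPM) lie below the other fulvestrant libraries.

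Where a dense run held a peak raised by estradiol, it was mostly a single one. Of the 417 runs 56 held such a peak, in 38 of them exactly 1, and 36 of the 56 were not called as runs. With 2.31% of tested dense-run peaks called higher (0.813% of all) and a median of 9 peaks per run, such a rate mostly gives single calls. The like share for runs of other sizes is not given. In the 20 called runs the called peaks carried a median of 66.4% of the change (9.05% to 102%), 8 runs had 1 called peak and 12 had 2 to 6. Of the 87 raised peaks 17 were the strongest peak of their run, where the 417 runs hold 4307 peaks and each run has 1 strongest. Across 3355 pairs of adjacent tested peaks in dense runs the estradiol changes had a Pearson correlation of 0.29, and across 52436 pairs in smaller runs 0.15. These pairs share libraries and span like distances only in part, so the values are descriptions.

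**Figure D4:**
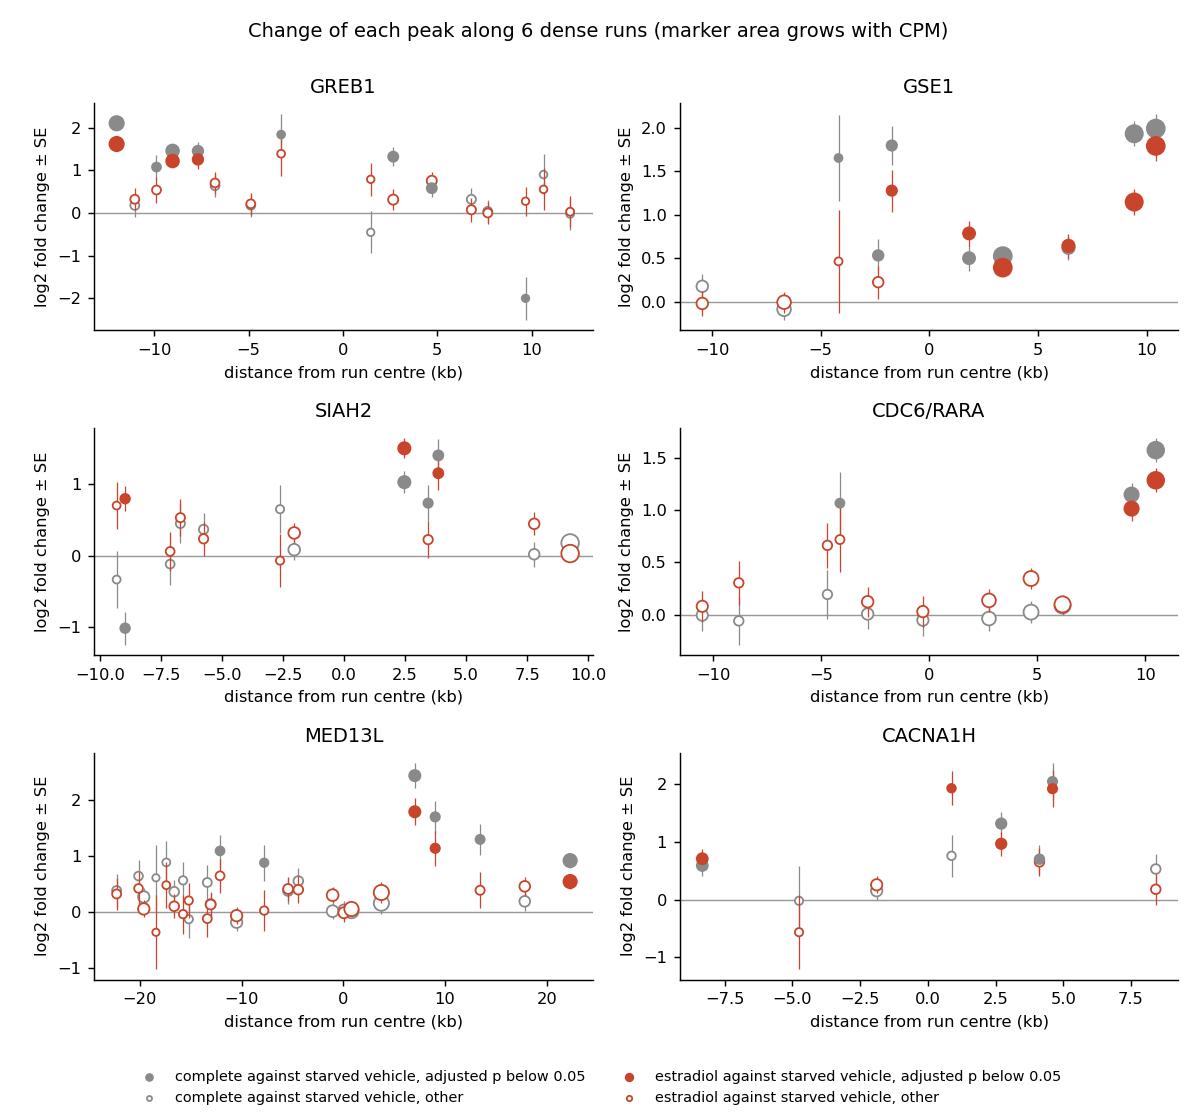
Points are the peaks of 6 dense runs, placed by distance from the run's centre in kb, with their log2 fold change ± SE for estradiol (red) and for complete medium (grey) against starved vehicle; filled points have an adjusted p under 0.05 and marker area grows with CPM. In GREB1 3 of 16 peaks are filled for estradiol and in GSE1 6 of 10, and the peaks of MED13L range from -0.36 to 1.79 with 3 filled.

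By gene list, dense runs within 10 kb of known estrogen-induced genes carried many of the calls. Of 30 such genes 9 had a dense run, 11 runs in all, with a median estradiol change of 0.45. Of the 11 runs 5 were called higher and 0 lower, where 4.80% of dense runs and 0.774% of runs of any size were called higher. The 5 were the GREB1, RARA and SIAH2 runs and 2 of the PGR runs. Not called were FHL2, a LIM-domain cofactor (0.54 ± 0.19 SE; edgeR adjusted p = 0.487), CA12, a carbonic anhydrase (0.63 ± 0.21 SE; 0.287), SLC9A3R1, RERG, CXCL12 and the third PGR run. The list was drawn up with results of these data known and is no independent evidence.

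For the luminal identity list the 11 genes had 22 dense runs, with 0 called higher and 0 lower by estradiol and a median change of -0.06. With 4.80% of dense runs and 0.774% of runs of any size called higher, a count of 0 of 22 is near the background. FOXA1, the pioneer factor, had 146, 142, 153 and 161 CPM in starved vehicle and 119, 123, 141 and 135 CPM with estradiol, so every estradiol library was below every vehicle library, but the change of -0.21 ± 0.09 SE did not pass (edgeR adjusted p = 0.659). GATA3 held 142 ± 11.3, 129 ± 8.68 and 157 ± 11.3 CPM in starved vehicle, estradiol and complete vehicle. KRT19 held 404 ± 7.03 and 497 ± 40.4 CPM in the starved groups (0.30 ± 0.09 SE; adjusted p = 0.151), and XBP1, a factor of the unfolded protein response, had 0.26 ± 0.08 SE (adjusted p = 0.137). All 7 TRPS1 runs had changes from -0.24 to -0.05, none called. The run inside ESR1, the receptor's own gene, was weak at 6.15 CPM.

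Of growth and cell cycle genes, 2 of 15 had dense runs: MYC with 1 and IGF1R with 3, of which the IGF1R run above was called. The MYC run, at the gene for the growth factor response regulator, held 87.8 ± 3.35, 97.5 ± 7.83 and 109 ± 8.47 CPM in starved vehicle, estradiol and complete vehicle. Of the housekeeping genes, ACTB, PPIA and EEF1A1 had dense runs that were not called with estradiol. The single runs of the estrogen-repressed gene BCL6, of JUNB and JUND, of FKBP5, SLC7A5 and HSD11B2, of the HOXC8 and HOXC10 cluster and of BCL9L, TNFRSF12A and RUNX1 were not called either.

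The comparison of complete with starved vehicle asks what sustained serum and hormone do to the same clusters. It uses the same starved vehicle libraries as the estradiol comparison, so the 2 are not independent. In dense runs 521 of 3769 tested peaks were higher in complete medium (13.8%), beside 7.93% of all tested peaks, and 209 were lower (5.55%), beside 9.91% of all. Of the runs 94 were higher (22.5%), beside 8.09% of runs of any size, and 34 lower (8.15%), beside 10.8% (edgeR, adjusted over all). At like levels, 24.4% of dense runs and 9.89% of other runs were higher, and 10.0% and 7.43% lower, so the shortage of lower runs was not seen there. Without starved vehicle replicate 2 the count of lower runs was 22. Without the complete vehicle libraries whose labels conflict, 348 peaks were higher and 133 lower, and 72 runs were higher and 24 lower. Over all features that fit called 8570 of 171350 peaks higher and 9320 lower, and 5818 of 108496 runs higher and 6495 lower.

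Both directions could occur inside a run: 223 runs held a peak called higher, 124 held one called lower, and 58 held both. With 13.8% of tested dense-run peaks called higher and 5.55% lower (7.93% and 9.91% of all), such rates alone put both in some runs. The like share for runs of other sizes is not given. All 8 runs named for the largest rises were in or near genes already described or AFF3. In order they were IFITM10 (1.93 ± 0.23 SE), GRHL2 (1.62 ± 0.12), NEK10 (1.25 ± 0.12), GREB1 (1.21 ± 0.09), BFSP2 (1.12 ± 0.09), PGR (1.10 ± 0.20), AFF3 (1.08 ± 0.15) and PEBP4 (1.06 ± 0.11). Without the libraries whose labels conflict all 8 were still called, with changes of 1.11 to 2.15. BFSP2 went from 70.2 ± 4.85 CPM in starved to 153 ± 2.82 in complete vehicle, and estradiol libraries held 93.7 ± 13.2. AFF3, a nuclear factor related to elongation complex subunits, held 12.45, 12.97, 11.0 and 13.2 CPM in starved and 28.5, 30.5, 24.8 and 24.3 CPM in complete vehicle, while its estradiol change of 0.51 ± 0.16 SE did not pass (adjusted p = 0.195).

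All 20 runs raised by estradiol were also called higher in complete medium, and 18 were without the libraries whose labels conflict (SIAH2 had 0.24 there, with an edgeR adjusted p of 0.140). The size differed between runs, with NEK10 at 0.57 for estradiol and 1.25 for medium and RARA at 0.45 and 0.45 on the log2 scale. These pairs of values share their control libraries.

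The 8 runs named for a fall in complete medium lay in or near other genes, 5 of them outside any. The largest fall was in a run 296 kb from PYDC2 (chr3:191757545-191776556, 8 peaks), which held 27.8, 26.2, 21.9 and 26.7 CPM in starved and 10.2, 12.1, 6.76 and 13.1 CPM in complete vehicle (-1.36 ± 0.14 SE; edgeR adjusted p = 4.60e-12). The groups were far apart, and estradiol libraries stayed at 25.2, 27.2, 24.6 and 22.1 CPM. The run in DNAH8, an axonemal dynein gene, went from 42.3 ± 2.93 to 25.1 ± 2.57 CPM (-0.75 ± 0.11 SE), and the run 91.3 kb from TMEM174 from 55.2 ± 7.80 to 35.1 ± 4.25 (-0.69 ± 0.10 SE). The run 15.7 kb from AMOTL2, an angiomotin family gene, went from 116 ± 16.5 to 72.9 ± 9.73 CPM (-0.69 ± 0.20 SE; adjusted p = 0.0184). That call was lost without complete vehicle replicate 3 or 4 or starved vehicle replicate 1 or 2 (adjusted p 0.059 to 0.076), and was 0.215 without both libraries whose labels conflict.

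The other 4 were near SPTSSA, a subunit of serine palmitoyltransferase (-0.65 ± 0.11 SE), in UCK2, a uridine-cytidine kinase (-0.60 ± 0.12), near VWA5A (-0.60 ± 0.09) and in SLC7A8, an amino acid transporter (-0.58 ± 0.13). With estradiol these 8 runs had changes of -0.22 to 0.01, and none passed. By list, 8 of the 11 estrogen-induced runs and 4 of the 22 luminal runs were higher in complete medium and none lower, beside 22.5% higher and 8.15% lower among dense runs and 8.09% and 10.8% among runs of any size. The luminal count is near that of dense runs in general. Without the libraries whose labels conflict the counts were 7 and 3. Among the luminal ones were KRT19 (0.33 ± 0.09 SE; edgeR adjusted p = 0.00658, or 0.098 without the libraries whose labels conflict), XBP1 (0.40 ± 0.08 SE; 9.37e-05) and MUC1 with TRIM46 (0.31 ± 0.08 SE; 0.00202, or 0.140 without them). MYC rose by 0.32 ± 0.08 SE (adjusted p = 0.00345), and PPIA and EEF1A1 of the housekeeping list by 0.57 ± 0.13 and 0.31 ± 0.09 SE.

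The 3 antagonists were each compared with the same complete vehicle libraries. edgeR called 0 dense-run peaks and 0 dense runs in either direction for fulvestrant, raloxifene or tamoxifen, and DESeq2 none either. Over all features the called share was 0.0% except for raloxifene, with 0.000638% of peaks and 0.000976% of runs higher. At an unadjusted p under 0.05, fulvestrant had 1 dense run higher and 26 lower, raloxifene 1 and 6, and tamoxifen 1 and 9. The lower runs were 6.24%, 1.44% and 2.16% of the dense runs, beside 1.82%, 2.0% and 2.06% of runs of any size, and the higher ones 0.240% each, beside 1.87%, 1.6% and 1.88%. For peaks the lower ones were 140, 96 and 118, that is 3.71%, 2.55% and 3.13% beside 2.03%, 2.15% and 2.2% of all. The higher ones were 61, 57 and 50, that is 1.62%, 1.51% and 1.33% beside 1.93%, 1.66% and 1.93%.

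The dense runs with the smallest p were not past the adjusted threshold for any antagonist. For fulvestrant they were the run near ATP11B (-0.34 ± 0.09 SE), the 31-peak run on chromosome 21 (-0.26 ± 0.07) and the 24-peak MED13L run (-0.22 ± 0.07). Near ATP11B the fulvestrant libraries held 88.1, 87.7, 68.3 and 52.8 CPM and the complete vehicle libraries 108, 104, 98.4 and 98.9, so replicates 3 and 4 gave most of the fall. For raloxifene they were the runs at CDH26 (-0.48 ± 0.18 SE), OSGIN1 with NECAB2 (-0.73 ± 0.28) and PGR (-0.19 ± 0.08), and for tamoxifen the 31-peak run (-0.21 ± 0.07), the 27-peak MED13L run (-0.34 ± 0.13) and CPEB3 (-0.40 ± 0.17). In edgeR all had an adjusted p of 1.00.

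The 20 runs raised by estradiol were then read under the antagonists. With fulvestrant 19 of the 20 were below complete vehicle, with a median of -0.15 on the log2 scale (-0.34 to 0.02), beside 59.7% of all dense runs below and a median of -0.03. In replicates 1 and 2 alone 13 were below (median -0.09), and in replicates 3 and 4 alone 17 (median -0.37). It was 18 (median -0.12) without the shallow libraries and 20 (median -0.17) without the libraries whose labels conflict. With raloxifene 12 were below (median -0.02). With tamoxifen 19 were below (median -0.04), beside 66.4% of all dense runs (median -0.04), and by replicate set 6 (median 0.02) and 18 (median -0.14). No p is given for these counts, since the members were chosen from other libraries of the same study and share their own controls.

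**Figure D5:**
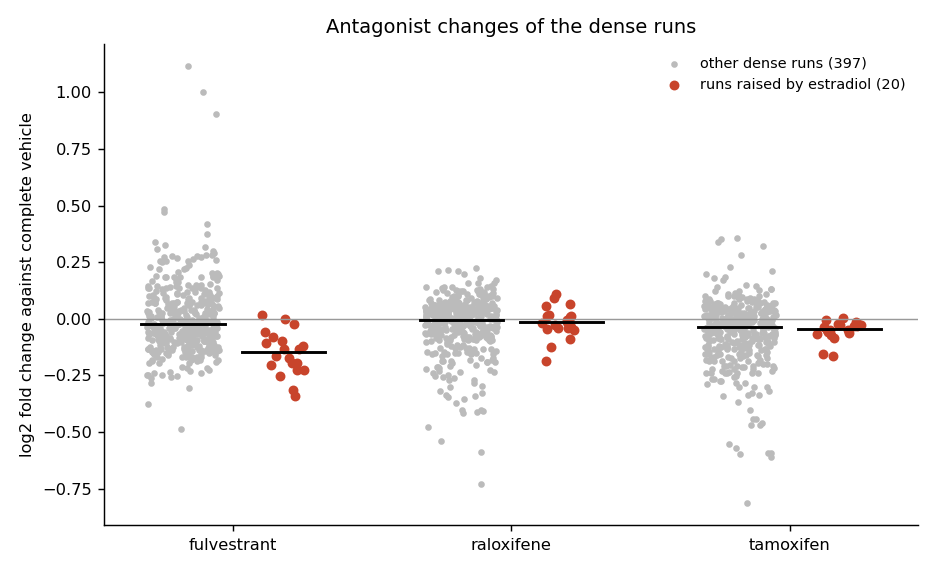
Points are dense runs, with the log2 fold change of each antagonist against complete vehicle; the 20 runs raised by estradiol are red, the other 397 are grey, and black lines are medians. For fulvestrant the red points sit mostly below 0 (19 of 20, median -0.15), for raloxifene around 0 and for tamoxifen slightly below.

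The counts within the 87 raised peaks gave a share per library that needs no fit. They made up 2.77%, 2.72%, 2.94% and 2.94% of the dense-run counts in starved vehicle and 4.99%, 5.13%, 5.76% and 5.53% with estradiol, the libraries that chose these peaks. In libraries that did not, the share was 5.86%, 5.62%, 5.61% and 5.54% in complete vehicle and 5.59%, 5.78%, 4.36% and 2.99% with fulvestrant. Fulvestrant replicates 1 and 2 were thus at the vehicle level and replicates 3 and 4 below all vehicle libraries, replicate 4 being the shallow one. Raloxifene libraries held 5.60% to 5.89% and tamoxifen libraries 5.78%, 6.11%, 5.09% and 5.27%. On the log2 scale the changes were -0.34, 0.01 and -0.03, with exact two-sided permutation p of 0.229, 0.629 and 0.657 (4 against 4, smallest possible 0.0286) and 0.657 each after adjustment over the 3. Without fulvestrant replicate 4 the fulvestrant change was -0.13 (exact permutation p = 0.343).

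Dense runs as a whole took 2.49% to 3.74% of the counts of a library, with a median of 2.75%. The log2 ratio of dense-run to other counts was 0.04 higher with estradiol (exact two-sided permutation p = 0.371) and 0.13 higher in complete than in starved vehicle (p = 0.0286). The estradiol value was 0.01 without starved vehicle replicate 1, 0.06 without starved vehicle replicate 3 and 0.02 without estradiol replicate 4. Without the libraries whose labels conflict the medium value was 0.14 (exact permutation p = 0.0667, the smallest that 2 against 4 allows), and the tamoxifen value below was -0.06 (exact permutation p = 0.0667). By the same exact permutation test it was -0.05 for tamoxifen (p = 0.0286), -0.02 for raloxifene (p = 0.343) and 0.08 for fulvestrant (p = 0.886, and -0.03 without replicate 4, the 3.74% library). After adjustment over the 5 comparisons the smallest p was 0.0714, so none passed.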

How the data were processed

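Accessibility was measured by ATAC-seq in 24 libraries of T47D cells, 4 per group, grouped by their titles. Per the submitters' processing notes, the tools were cutadapt 1.8.1, Bowtie2 2.4.4 and SAMtools 1.9, and the build was hg38. How peaks were called and counted, what was done with duplicates, whether reads were shifted for Tn5 and the base of the coordinates are not stated in any source used here. The authors deposited raw counts per peak (whole numbers, no normalization) for 1 set of 189403 peaks, 200 to 958 bp wide, common to all libraries, and no column was left unmapped.

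Peaks were joined as described, and counts were summed per run for every run of any size. Peaks and runs were each fitted once over all 24 libraries with edgeR 4.0.16 (R 4.3.3): filterByExpr (minimum count 10, minimum total 15), TMM scaling, 6 group means and the robust quasi-likelihood F-test, two-sided, adjusted by Benjamini-Hochberg over 156745 peaks or 102433 runs at a threshold of 0.05. SE values are the fitted log2 change divided by the square root of F. CPM values use TMM-scaled totals. Ratios per library were tested by exact permutation. On simulated data the fits were checked for recovery of known changes. Total counts of 434598 to 12140005 per library limit weak peaks most; in all 36 pairs of replicates the counts differed beyond sampling noise (chi-square 1.58 to 10.7 per degree of freedom), so none was merged.

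Genes and promoters came from RefSeq tables on GRCh38.p14, with distance taken to the whole coding gene. Listed starts covered 15842 of 20052 coding genes and none on chromosome 8, and a gene's first-listed start was used. All genes of the 11 lists matched. The runs named in the text were the 8 with most peaks, the 8 with most signal, up to 8 with the largest rise and fall among called runs without overlap between groups for estradiol and for medium, the 3 with the smallest p per antagonist, and runs near the luminal, estrogen-induced and growth lists. Named peaks were the one with the smallest p in the runs named for estradiol or medium and the 8 largest estradiol rises, counting only called peaks with no overlap between groups and an abundance over the median. The members and lists were chosen with earlier results of these data known. Alternatives were other joining distances and run sizes, RLE or no scaling, no filter, tests of features above the median abundance, fits of only 2 groups, the older edgeR fit, DESeq2 1.42.0, a replicate block, the set of replicates as a term, each set alone, and leaving out single, shallow or conflictingly labelled libraries. Dropping runs at ribosomal RNA genes or on the short arm of chromosome 21, the comparison at like levels and the antagonist values by set were chosen after seeing the data. Some items withheld for evaluations are not reported here.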

Additional observations from a re-analysis of the deposited data

Results flagged for a closer look

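In groups of 4 libraries, 13 of 198 combinations of a named run and a group had 1 library far from the other 3 by Dixon's ratio; chance alone gives about 1 in 20. In 4 of them it was fulvestrant replicate 4, the shallow library: BCL9L stood at 174 CPM (nearest other 334), the 27-peak MED13L run at 35.2 CPM (61.8), BFSP2 at 70.3 CPM (134) and CACNA1H at 68.6 CPM (49.9). The part of depth in these 4 values was not tested.

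Among the estradiol libraries 1 stood at 12.1 CPM for IFITM10 (nearest other 9.16) and 1 at 15.4 CPM for AFF3 (18.7). In complete vehicle CDC6 with RARA had 1 library at 339 CPM (316) and GREB1 1 at 119 CPM (129). With raloxifene GSE1 had 1 at 466 CPM (433), the 31-peak run of chromosome 21 1 at 462 CPM (504) and PPP1R2 1 at 20.8 CPM (33.6). With tamoxifen the 22-peak run of chromosome 21 had 1 at 564 CPM (469), and in starved vehicle the 29-peak TRPS1 run had 1 at 64.6 CPM (49.3).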

How the results depend on the processing

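Joining and size set the counts by construction: at 3 kb, at the longer distance (the widest joining tried), 6 or more and 10 or more peaks, estradiol-raised peaks numbered 12, 679, 184 and 42 (87 as reported) and runs 3, 134, 57 and 11 (20). Peaks higher in complete medium numbered 96, 6069, 1161 and 255 (521), lower 27, 4507, 640 and 84 (209), runs higher 15, 1093, 287 and 39 (94), lower 4, 484, 137 and 10 (34). Peaks lower with estradiol (0) were 14 at the longer distance, 2 with 6 or more, 1 without scaling, 3 above the median abundance, 4 with the set term and 1 by DESeq2; lower runs (0) were 2 at the longer distance, 1 without scaling, 2 above the median abundance, 1 with the set term and 1 without shallow libraries. At the longer distance 1 peak was higher with raloxifene.

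In replicates 3 and 4 only, estradiol raised 48 peaks and 9 runs (729 of 160761 peaks and 476 of 103858 runs over all features). Medium there had 210 peaks higher and 88 lower (4293 and 6270 over all), and runs 44 and 13 (3014 and 4527). Fulvestrant there had 15 peaks higher and 1 lower (73 and 15 over all), with the shallow library as 1 of 2. Its runs were 13 higher and 1 lower (153 and 35 over all). The set term or the replicate block gave 34 raised runs (1009 and 983 of 102433 over all). Same-numbered libraries correlated at -0.13 to 0.13, which does not settle whether the numbers pair the samples. Without conflicting labels 133 peaks were lower in complete medium.

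Leaving out single libraries gave 61 to 83 raised peaks (0 to 2 lower) and 11 to 21 raised runs (0 to 1 lower), 378 to 542 peaks higher and 163 to 205 lower with medium, and 74 to 99 and 22 to 33 runs. Dense-run shares then ranged, in log2, from 0.014 to 0.060 for estradiol and -0.033 to 0.128 for fulvestrant, and raised-peak shares from -0.459 to -0.128 for fulvestrant, -0.00667 to 0.028 for raloxifene and -0.079 to 0.014 for tamoxifen. The fulvestrant dense-run share was -0.000549 at the longer distance, -0.067 in replicates 1 and 2 and -0.033 without shallow libraries; raloxifene was 0.00107 at the longer distance. Raised-peak shares were -0.000606 for raloxifene and 0.053 for tamoxifen in replicates 1 and 2, and -0.012 for raloxifene without conflicting labels. Of 60 results on named runs 37 kept direction and call under every alternative and 0 reversed. The antagonist results among the 60 were not called to begin with, so they had no call to lose. The cause of other changes was not tested.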
